A study of Danio rerio with 9 samples.

Results

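The genes described here encode enzymes that handle foreign compounds, hormones and lipids in zebrafish: cytochrome P450 genes of the cyp2, cyp3 and cyp4 families, UDP-glucuronosyltransferases (ugt), sulfotransferases (sult) and glutathione S-transferases (gst). They were chosen by gene name alone, as rows of the 3 deposited tables that name 1 gene beginning with one of these prefixes. In all, 51 gene names out of 12126 single gene names in the series met the rule, and 40 of the 51 had a row of their own in all 3 tables. A further 64 names with these prefixes, cyp46a1 genes among them, appeared solely in rows that pool several neighbouring names, and those rows were counted separately. The prefix also took 7 genes of other families (cyp20a1, cyp24a1, cyp26a1, cyp26b1, cyp26c1, cyp27c1 and gstcd). These 7 are held in the member counts and medians below, and their values are described apart.

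The animals were whole AB strain zebrafish at 96 h after fertilization, exposed to 16 µM PFBS (perfluorobutane sulfonate, a fluorinated surfactant), to 32 µM PFBS, or to a control with 0.01% DMSO. Each of the 9 samples, 3 per group, was a pool of 15 whole embryos that had been dechorionated by hand. The labels name DMSO for the control alone, and for all groups they give a culture temperature of 37 °C, with exposure media renewed every 24 h. The 3 experiments gave 1 sample per group each, and the labels do not link samples to experiments. Polyadenylated RNA was sequenced from stranded libraries. The authors deposited 1 table for each pair of groups, with 1 level per group in FPKM (fragment numbers corrected for transcript length and sequencing depth), a log2 ratio and a q-value, so levels can be compared between genes but have no value per sample, no standard error and no known depth. The words rose and fell are kept for genes with q under 0.05 in the authors' deposited table. That q-value is the sole statistical measure here, and how its test used the spread between samples is not given. Beside these calls, counts of rows with an unadjusted p under 0.05 are given. They were recovered from the q-values as upper bounds on p, so each such count is a minimum.

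Cytochrome P450 enzymes of families cyp2 and cyp3 oxidize drugs, pollutants, steroids and fatty acids, and cyp4 enzymes mainly hydroxylate fatty acids. Conjugating enzymes then attach glucuronic acid (ugt), sulfate (sult) or glutathione (gst), which makes the products easier to excrete. In fish most of these genes are expressed in liver and intestine, and many lie in clusters of related genes. Some are induced through the pregnane X receptor Pxr (gene nr1i2), the aryl hydrocarbon receptor or Nrf2.

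The most abundant transcripts of these families in control larvae were those of glutathione S-transferases. In the authors' deposited table for 16 µM the pooled row of the pi class genes gstp1 and gstp2 stood at 405 FPKM in control, and the alpha class row led by gstal at 142 FPKM. The row pooling 7 ugt1a names followed with 84.4 FPKM in control, and the row of the steroid sulfotransferases sult2st1 and sult2st2 with 61.0 FPKM. Among single genes the highest control levels were those of the sulfotransferase gene sult6b1 (51.6 FPKM), cyp2y3 (48.2 FPKM), the omega class gene gsto2 (44.3 FPKM) and the mu class gene gstm (44.3 FPKM). The drug-metabolizing P450 gene cyp3a65 stood at 17.8 FPKM and the pooled row of the fish genes cyp3c1, cyp3c3 and cyp3c4 at 37.3 FPKM. The median control level of the 45 member rows was 6.92 FPKM, against 9.85 FPKM over all rows naming 1 gene. Every member row reached 1 FPKM in at least 1 group of its table (45, 50 and 44 rows at 16 µM, at 32 µM and in the table of both doses), so a minimum of 1 FPKM would leave out none of them. Nearly all rows naming 1 gene also reached 1 FPKM in those tables (12331 of 12545, 12182 of 12182 and 12348 of 12510).

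Levels of the same group can be compared between tables, which gives a measure of how far a level depends on the table. Locus bounds of some rows also differ between tables, and whether each table came from its own assembly is not given. Of 39 members with a single row in both control tables, 34 had control levels within 0.02 of each other on the log2 scale. The control levels of cyp2ad6, cyp2k18, cyp2k19 and cyp2y3 differed by more than 0.1, by up to 0.31 for cyp2k18. The level of cyp2y3 at 16 µM differed by 0.66 between tables on that scale, so its levels were read within a table alone.

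At 16 µM PFBS 2 of 45 member rows rose and none fell. This was 4.44% of the member rows, beside 0.359% called among all 12545 rows naming 1 gene (0.151% higher and 0.207% lower). The 2 genes were cyp3a65 and sult6b1, both above the median level of the members. The P450 gene cyp3a65 (chromosome 1, 60208646 to 60218578, danRer7) is a zebrafish gene of liver and intestine. It stood at 22.8 FPKM in 16 µM PFBS, against 17.8 FPKM in control, in the authors' deposited table. Its log2 ratio there was 0.36 (1.28-fold, q = 0.0219). The cytosolic sulfotransferase gene sult6b1 (chromosome 11, 44488201 to 44501316) had 67.6 FPKM in 16 µM PFBS, against 51.6 FPKM in control, a log2 ratio of 0.39 in the authors' deposited table (1.31-fold, q = 0.0219). Both q-values are the smallest in that table, a value shared by 67 of its 29280 rows. The member nearest to the threshold from outside was cyp2k18 (0.53, q = 0.159).

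None of the 12 cyp2 rows, 5 cyp4 rows, 7 ugt rows or 7 gst rows passed at 16 µM. By unadjusted p at least 2 cyp2 rows and 1 gst row were under 0.05, and no cyp4 or ugt row could be placed there, by a test of the authors that no source used here names. Over all members at least 5 of 45 rows were under 0.05, beside at least 221 of 12545 rows naming 1 gene. The cyp2 genes nearest to the threshold were cyp2k18, of a fish subfamily of P450s, and cyp2n13, from a cluster related to mammalian CYP2J genes. In the authors' deposited table cyp2k18 stood at 3.46 FPKM in 16 µM PFBS, against 2.39 FPKM in control, and cyp2n13 at 8.57 FPKM in 16 µM PFBS, against 6.92 FPKM in control (0.31, q = 0.628). For the theta class gene gstt1b the log2 ratio in the authors' deposited table was 0.22 (q = 0.518) and for the omega class gene gsto1 0.23 (q = 0.998). None of the 25 pooled rows passed at 16 µM either, and 14 had positive and 11 negative log2 ratios. Under 0.05 by unadjusted p were the pooled rows of ugt5a1 to ugt5a4 (0.62) and of the ugt1a names (0.23), both higher. The pooled row led by ugt2b2p (-0.33), which was lower, was also under 0.05. The member median was 0.02, against -0.02 over all rows naming 1 gene. Of the 45 rows 28 were positive, beside 39.0% of all rows naming 1 gene.

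At 32 µM PFBS 5 of 50 member rows were called, with 4 higher and 1 lower. In that table the authors called 2.27% of all 12182 rows naming 1 gene (0.985% higher and 1.28% lower). The genes that rose were cyp2k18, cyp3a65, cyp2n13 and sult6b1, and cyp2aa8 fell. The 4 that rose have the smallest q-value of that table, 0.00521, which is shared by 258 of its 26901 rows. By unadjusted p at least 17 of the 50 rows were under 0.05, of which 14 were higher, beside at least 1412 of the 12182 rows naming 1 gene, of which 556 were higher. The member median was 0.025, against -0.02 over all rows naming 1 gene. Of the 50 rows 30 were positive, beside 40.4% of all rows naming 1 gene.

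**Figure D1:**
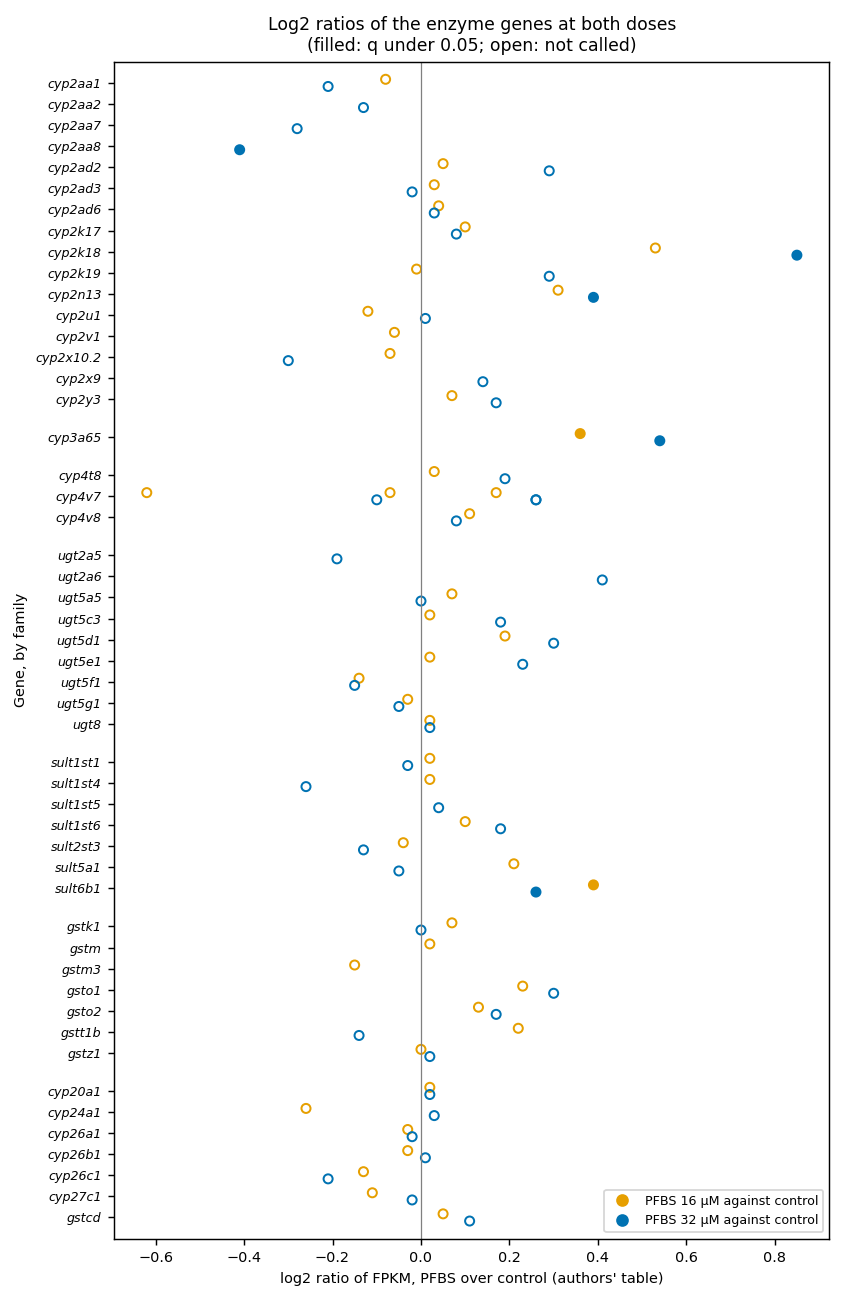
Log2 ratios of FPKM (PFBS over control, horizontal axis) of each gene, grouped by family, at 16 µM (orange) and 32 µM (blue); filled points have q under 0.05, and sult3st4, listed at 0 FPKM in control, is left out. The filled points at 16 µM are cyp3a65 (0.36) and sult6b1 (0.39), and the highest point at 32 µM is cyp2k18 (0.85).

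The cyp2k18 gene (chromosome 3) had the largest log2 ratio at 32 µM of the single members detected in both groups. Its level was 5.35 FPKM in 32 µM PFBS, against 2.97 FPKM in control, a log2 ratio of 0.85 (1.80-fold, q = 0.00521) in the authors' deposited table. The control level differed between tables (2.97 FPKM in this table and 2.39 FPKM in the one for 16 µM). Here the row has the same locus as cyp2k19 (12517184 to 12556815), a gene of the same subfamily with which it could share reads. For cyp2k19 the level was 12.1 FPKM in 32 µM PFBS, against 9.92 FPKM in control (0.29, q = 0.281) in the authors' deposited table. The P450 gene cyp2n13 (chromosome 20, 25544865 to 25552388) stood at 9.13 FPKM in 32 µM PFBS, against 6.96 FPKM in control, with a log2 ratio of 0.39 (1.31-fold, q = 0.00521) in the authors' deposited table.

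The gene cyp3a65 was called at both doses. It had 26.0 FPKM in 32 µM PFBS, against 17.9 FPKM in control, a log2 ratio of 0.54 (1.45-fold, q = 0.00521) in the authors' deposited table. The remaining cyp3 genes, cyp3c1, cyp3c3 and cyp3c4, formed 1 pooled row at 34.8 FPKM in 32 µM PFBS and 34.8 FPKM in control (0.00, q = 0.996) in the authors' deposited table. Whether cyp3a65 differs from the cyp3c row was not tested.

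The P450 gene cyp2aa8 was the single member to fall at 32 µM and the one nearest to the threshold from inside. Its level was 29.2 FPKM in 32 µM PFBS, against 39.1 FPKM in control (-0.41, q = 0.0319), in the authors' deposited table. Its row is 1 of 6 that share a single locus on chromosome 23 (42329263 to 43024136), home of the fish cyp2aa genes, and related genes there could share reads. In the other tables cyp2aa8 was pooled with neighbours, so it has no separate value at 16 µM. All 6 rows of this locus had negative log2 ratios at 32 µM in the authors' deposited table, from -0.41 to -0.12, and the 5 beside cyp2aa8 were not called. At 16 µM the 4 rows of the cluster ran from -0.32 to -0.08 in the authors' deposited table, none called, with the pooled row that holds cyp2aa8 at -0.20 (49.9 FPKM in 16 µM PFBS, against 57.3 FPKM in control).

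The other P450 genes were not called at 32 µM. The most abundant single P450, cyp2y3, had 62.7 FPKM in 32 µM PFBS, against 55.7 FPKM in control (0.17, q = 0.0742) in the authors' deposited table. The gene cyp2k17 stood at 46.2 FPKM in 32 µM PFBS, against 44.0 FPKM in control, and cyp2ad3 at 42.5 FPKM in 32 µM PFBS, against 43.1 FPKM in control (0.08 and -0.02). Among fatty acid hydroxylases of the cyp4 family none of 5 rows was called, with at least 1 row under 0.05 by unadjusted p. The gene cyp4v8 (current symbol cyp4v2a) had 15.8 FPKM in 32 µM PFBS, against 14.9 FPKM in control (0.08, q = 0.707), and the fish gene cyp4t8 had 4.99 FPKM in 32 µM PFBS, against 4.35 FPKM in control (0.19, q = 0.497), in the authors' deposited table. The gene cyp4v7 (current symbol cyp4v2b) has 3 rows at 1 locus, with log2 ratios of 0.26, 0.26 and -0.10 at 32 µM and of 0.17, -0.07 and -0.62 at 16 µM in the authors' deposited table, all without a call. The low cyp2u1 and cyp2x10.2 rows had ratios of 0.01 (q = 0.997) and -0.30 (q = 0.628) there at 32 µM, and cyp2x9 had 0.14 (q = 0.475). The gene cyp2v1 had a row of its own at 16 µM alone, with 11.6 FPKM in 16 µM PFBS, against 12.0 FPKM in control.

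**Figure D2:**
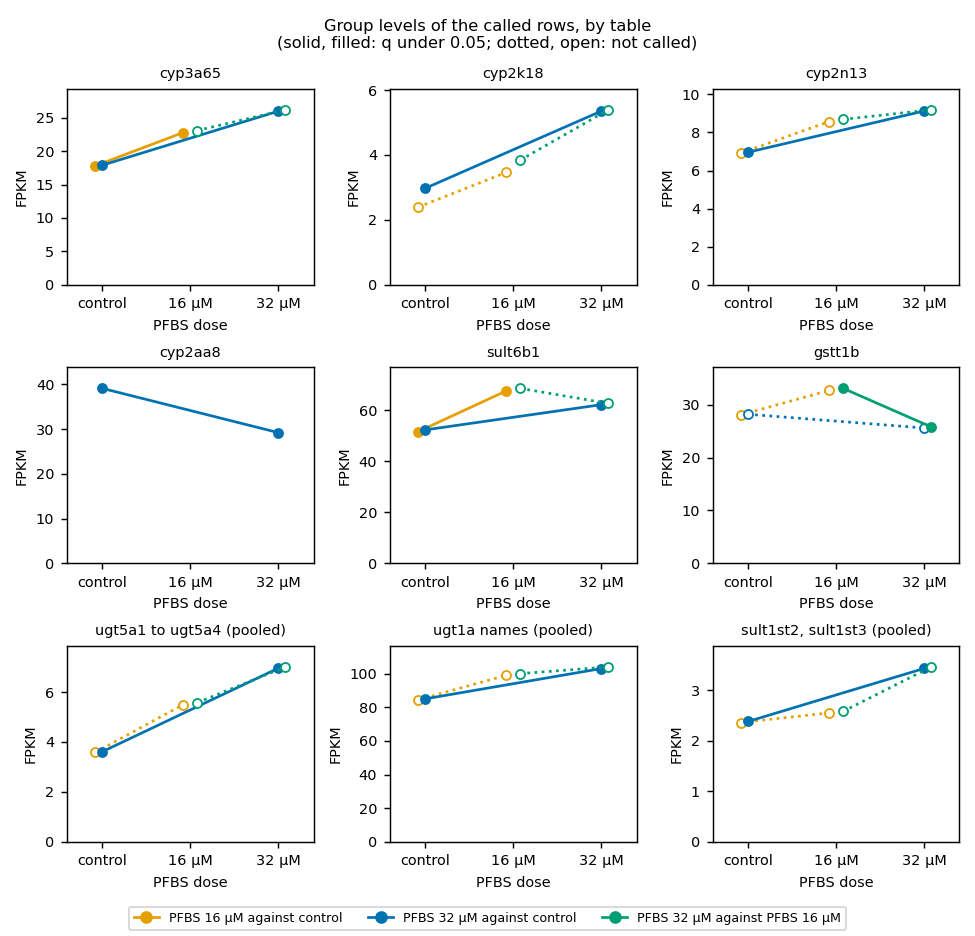
Group levels in FPKM (vertical axis, from 0) in control, 16 µM and 32 µM PFBS (horizontal axis) for the 6 members and 3 pooled rows called in any table, with 1 line per table; solid lines with filled points have q under 0.05. The level of cyp3a65 is higher in both PFBS groups than in control, while gstt1b is 25.8 FPKM in 32 µM PFBS, against 33.1 FPKM in 16 µM PFBS.

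Of the 7 pooled glucuronosyltransferase rows 2 rose at 32 µM, those of ugt5a1 to ugt5a4 and of the ugt1a names, and none of the 9 single ugt rows was called. The row pooling ugt5a1, ugt5a2, ugt5a3 and ugt5a4, of a family known from fish, had the largest change among all rows of these enzymes that were detected in both groups. It stood at 6.96 FPKM in 32 µM PFBS, against 3.61 FPKM in control, a log2 ratio of 0.95 (1.93-fold, q = 0.00521) in the authors' deposited table, and at 5.50 FPKM in 16 µM PFBS, against 3.58 FPKM in control (0.62, q = 0.202). The abundant row of the 7 ugt1a names, whose mammalian counterparts conjugate bilirubin and phenols, had 103 FPKM in 32 µM PFBS, against 85.0 FPKM in control (0.29, q = 0.00521) in the authors' deposited table. At 16 µM that row had a log2 ratio of 0.23 (q = 0.258) in the authors' deposited table.

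All 7 pooled ugt rows had positive log2 ratios at 32 µM in the authors' deposited table, with a median of 0.23. Not called among them were the row of ugt2a1 to ugt2a4 (0.23, q = 0.0795), that of the ugt5b genes (0.17, q = 0.124), that led by ugt2b1 (0.24, q = 0.304), that of the ugt1b genes with the neighbouring name ppef1 (0.09, q = 0.694) and that led by the pseudogene ugt2b2p (0.12, q = 0.662). Of the 9 single ugt rows at least 2 were under 0.05 by unadjusted p, with 5 positive and 3 negative ratios and a median of 0.02. The member nearest to the threshold from outside was ugt5d1, at 8.46 FPKM in 32 µM PFBS, against 6.92 FPKM in control (0.30, q = 0.0555) in the authors' deposited table. The single ugt row with the next lowest q was ugt2a6, at 2.22 FPKM in 32 µM PFBS, against 1.67 FPKM in control (0.41, q = 0.277). The gene ugt8, whose enzyme makes a myelin galactolipid in mammals and is no drug-conjugating enzyme, had 7.78 FPKM in 32 µM PFBS, against 7.67 FPKM in control. The remaining single ugt5 genes and ugt2a5 lay between -0.19 (ugt2a5) and 0.23 (ugt5e1) on the log2 ratio scale in the authors' deposited table. Among them were ugt5c3 (0.18), ugt5g1 (-0.05) and ugt5f1 (-0.15). At 16 µM the log2 ratios were 0.19 for ugt5d1, 0.02 for ugt8, -0.03 for ugt5g1 and -0.14 for ugt5f1, all without a call.

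Among sulfotransferases sult6b1 rose again at 32 µM. It had 62.2 FPKM in 32 µM PFBS, against 52.3 FPKM in control, a log2 ratio of 0.26 (q = 0.00521) in the authors' deposited table. The pooled row of sult1st2 and sult1st3, phenol sulfotransferases, had 3.43 FPKM in 32 µM PFBS, against 2.38 FPKM in control (0.52, q = 0.0344), in the authors' deposited table. The more abundant phenol sulfotransferase gene sult1st1 had 21.9 FPKM in 32 µM PFBS, against 22.3 FPKM in control (-0.03, q = 0.944), and sult1st6 had 15.2 FPKM in 32 µM PFBS, against 13.5 FPKM in control (0.18, q = 0.314), in the authors' deposited table. The remaining single sult rows, sult1st4, sult1st5, sult2st3 and sult5a1, ran from -0.26 (sult1st4, q = 0.491) to 0.04 (sult1st5) there at 32 µM. The pooled steroid sulfotransferase row stood at 71.5 FPKM in 32 µM PFBS, against 66.3 FPKM in control (0.10, q = 0.589). The row named sult3st4 was listed at 0 FPKM in control and at 191 FPKM in 32 µM PFBS without a call (q = 0.356). It has the same locus as a pooled row that also names sult3st4 (25.6 FPKM in 32 µM PFBS, against 27.9 FPKM in control). Between the doses the sult3st4 row was listed at 0 FPKM in 16 µM PFBS and at 193 FPKM in 32 µM PFBS, without a call. It is left out of every range given here, though the counts and medians at 32 µM and between the doses hold it.

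Glutathione S-transferase genes showed no call against control at either dose. At 32 µM none of 5 single rows passed and at least 3 were under 0.05 by unadjusted p, and none of the 3 pooled rows passed. The pi class row of gstp1 and gstp2, of which gstp1 is a known Nrf2 target in zebrafish, had 434 FPKM in 32 µM PFBS, against 407 FPKM in control (0.09, q = 0.513), in the authors' deposited table. The omega class gene gsto2 had 50.2 FPKM in 32 µM PFBS, against 44.6 FPKM in control (0.17, q = 0.161), and its neighbour gsto1 4.86 FPKM in 32 µM PFBS, against 3.97 FPKM in control (0.30, q = 0.330), in the authors' deposited table. The zeta class gene gstz1, which takes part in tyrosine breakdown, and the kappa class gene gstk1 had log2 ratios of 0.02 and 0.00 there. The alpha class row led by gstal stood at 145 FPKM in 32 µM PFBS, against 144 FPKM in control. The mu class genes gstm and gstm3 were pooled at 32 µM (88.0 FPKM in 32 µM PFBS, against 91.1 FPKM in control), and at 16 µM had log2 ratios of 0.02 and -0.15 on rows of their own in the authors' deposited table.

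Rows that pool names with these prefixes numbered 21 at 32 µM, 2 of them of cyp46a1 genes. Of the 21 rows 3 rose and none fell, beside 4.35% called higher among all 230 rows pooling several names in that table. Those 3 were the ugt5a, ugt1a and sult1st2 rows described above.

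Within clusters of neighbouring genes of these families, called and uncalled rows lay side by side at 32 µM. On chromosome 25 the ugt5a5 row, 6526 bases from the row of ugt5a1 to ugt5a4, had 3.27 FPKM in 32 µM PFBS and 3.27 FPKM in control (0.00, q = 0.997) in the authors' deposited table, beside the ratio of 0.95 of its neighbours. On chromosome 8 sult1st1 lies 4340 bases from the row of sult1st2 and sult1st3 (-0.03 beside 0.52). On chromosome 20 cyp2n13 (0.39) lies 1667 bases from cyp2ad6 (0.03, q = 0.975), and the further genes of that cluster had log2 ratios of 0.29 for cyp2ad2 (q = 0.123), -0.02 for cyp2ad3 and 0.01 for the row of 6 names led by cyp2p10 in the authors' deposited table. On chromosome 3 cyp2k18 and cyp2k19 (0.85 and 0.29) lie beyond cyp2k17 and the cyp2k16 row (0.08 and 0.10). No test of the differences between neighbours is in the tables.

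**Figure D3:**
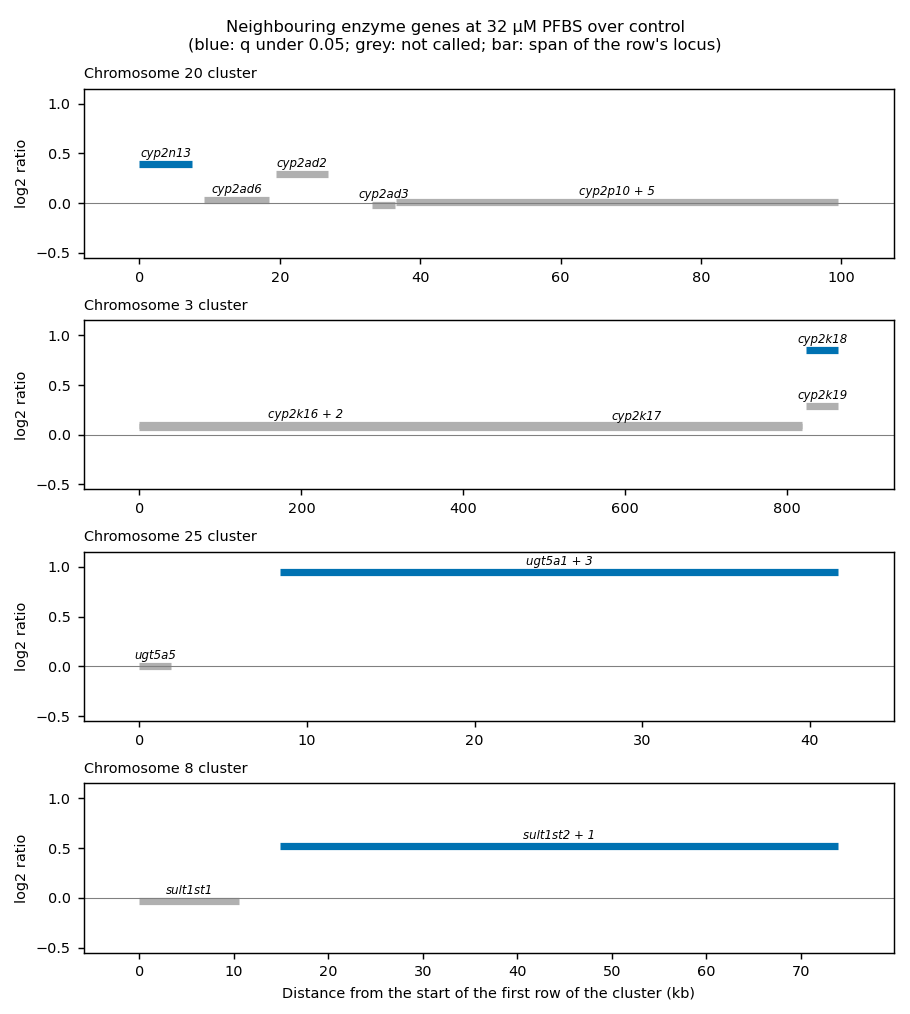
Log2 ratio at 32 µM PFBS over control (vertical axis) of neighbouring rows in 4 clusters against distance from the start of the cluster in kb (horizontal axis); each bar spans the row's locus, blue bars have q under 0.05, and "+ 3" counts further names pooled in a row. The ugt5a5 bar lies at 0.00 beside the bar of ugt5a1 to ugt5a4 at 0.95.

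Set directly against each other, 32 µM and 16 µM PFBS differed in 1 of 44 member rows (2.27%, beside 0.416% of all 12510 rows naming 1 gene, of which 0.288% were higher and 0.128% lower at 32 µM). That row was gstt1b (chromosome 21, 13916251 to 13923602), a theta class glutathione S-transferase, which fell. It had 25.8 FPKM in 32 µM PFBS, against 33.1 FPKM in 16 µM PFBS, a log2 ratio of -0.37 (0.774-fold, q = 0.0194) in the authors' deposited table. Against control gstt1b was not called at either dose, with 32.7 FPKM in 16 µM PFBS, against 28.1 FPKM in control (0.22, q = 0.518), and 25.6 FPKM in 32 µM PFBS, against 28.2 FPKM in control (-0.14, q = 0.384), in the authors' deposited table.

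The genes that rose against control were not called between the doses. The direct log2 ratios of 32 to 16 µM were 0.18 for cyp3a65 (q = 0.772), 0.49 for cyp2k18 (q = 0.772), 0.08 for cyp2n13 (q = 0.999) and -0.13 for sult6b1 (q = 0.999) in the authors' deposited table. In FPKM cyp3a65 had 26.2 in 32 µM PFBS, against 23.1 in 16 µM PFBS, and sult6b1 had 62.7 in 32 µM PFBS, against 68.6 in 16 µM PFBS. None of the 24 pooled rows was called between the doses, with 0.33 for the ugt5a1 to ugt5a4 row (q = 0.999) and 0.41 for the sult1st2 and sult1st3 row (q = 0.773) in the authors' deposited table. Under 0.05 by unadjusted p were the sult1st2 and sult1st3 row and the row led by ugt2b2p (0.31, q = 0.503). The member nearest to the threshold from outside was cyp24a1 (0.30, q = 0.621). By unadjusted p at least 6 of the 44 rows were under 0.05, of which 5 were higher at 32 µM. Over all 12510 rows naming 1 gene at least 392 were under 0.05, of which 230 were higher.

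The 7 genes of other families that share the prefix showed no call in any table. They include cyp26a1, cyp26b1 and cyp26c1, which degrade retinoic acid, cyp24a1, which degrades active vitamin D, cyp27c1, which converts vitamin A1 to vitamin A2 in zebrafish, and cyp20a1 and gstcd. Their log2 ratios ran from -0.26 to 0.05 at 16 µM and from -0.21 to 0.11 at 32 µM in the authors' deposited table. By unadjusted p none could be placed under 0.05 at 16 µM, and at least 1 at 32 µM (cyp26c1, -0.21). Between the doses at least 1 was under 0.05 (cyp24a1, 0.30). The vitamin D gene cyp24a1 had 5.17 FPKM in 16 µM PFBS, against 6.23 FPKM in control, and 6.41 FPKM in 32 µM PFBS, against 6.28 FPKM in control.

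Among the receptors and transcription factors that control these enzymes, 1 gene was called. Beside this list and those below, 0.359% of all rows naming 1 gene were called at 16 µM and 2.27% at 32 µM. By unadjusted p at least 221 of 12545 such rows were under 0.05 at 16 µM and at least 1412 of 12182 at 32 µM. The list of 24 measured regulators had no call at 16 µM (none shown under 0.05 by unadjusted p) and 1 at 32 µM, nfe2l2a, which encodes Nrf2, at 31.3 FPKM in 32 µM PFBS, against 26.7 FPKM in control (0.23, q = 0.0158), in the authors' deposited table. Its control level was 37.0 FPKM in the table for 16 µM, so that level differs between tables. The nfe2l2a row also shares its locus with another row. The Pxr gene nr1i2 had 4.56 FPKM in 32 µM PFBS, against 3.97 FPKM in control (0.20, q = 0.345), and the aryl hydrocarbon receptor gene ahr2 14.6 FPKM in 32 µM PFBS, against 13.2 FPKM in control (0.14, q = 0.172), in the authors' deposited table. The regulator gene with the highest control level, cebpb, had log2 ratios of -0.15 at 16 µM and -0.02 at 32 µM there.

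Among 19 electron donors and other oxidizing or hydrolysing enzymes, 2 rose and 1 fell at 16 µM, and 2 rose and 2 fell at 32 µM. The aryl hydrocarbon receptor target cyp1a had in the authors' deposited table log2 ratios of 1.49 at 16 µM (q = 0.0219) and 0.82 at 32 µM (q = 0.00521). The row named mpx has the same locus, with 1.6 and 0.89, so the levels of both rows may not be separate. The gene cyp1b1, at a low level, had 1.57 FPKM in 16 µM PFBS, against 1.05 FPKM in control (0.58, q = 0.0219). In the table for 32 µM it had 1.27 FPKM in 32 µM PFBS, against 1.09 FPKM in control (0.24, q = 0.619). Cytochrome b5 gene cyb5a, whose product passes electrons to P450s, rose at 32 µM (76.1 FPKM in 32 µM PFBS, against 65.3 FPKM in control, 0.21, q = 0.00521). The P450 reductase genes pora and porb had 0.09 each (q = 0.570 and 0.937) in the authors' deposited table. The carboxylesterase genes fell, ces3 at both doses (-0.32 and -0.57) and ces2 at 32 µM (117 FPKM in 32 µM PFBS, against 147 FPKM in control; -0.33, q = 0.00521), in the authors' deposited table.

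In the list that supplies conjugation with its cofactors, 1 of 15 genes was called at 32 µM and none of 16 at 16 µM (none shown under 0.05 by unadjusted p). The gene that rose was ugdh, whose enzyme makes the UDP-glucuronic acid used in glucuronidation, at 31.3 FPKM in 32 µM PFBS, against 27.1 FPKM in control (0.21, q = 0.0188), in the authors' deposited table. The most abundant gene of the list, ugp2a, one step upstream, had -0.05 (q = 0.851), and papss1 and papss2b, which make the sulfate donor, had -0.03 and 0.01 there. The list of other conjugating enzymes, which also holds enzymes with other roles, had no call in 8 genes at 16 µM and 9 at 32 µM. By unadjusted p none was shown under 0.05 at 16 µM, and at least 3 were at 32 µM. The most abundant gene of that list, the glycine methyltransferase gnmt, had log2 ratios of 0.02 and -0.06 in the authors' deposited table. Of the transporters 18 were measured at 32 µM, and 1 rose and 1 fell. The conjugate exporter gene abcc2 had 18.3 FPKM in 32 µM PFBS, against 14.5 FPKM in control (0.33, q = 0.00521), and the organic anion carrier gene slc22a7a 14.1 FPKM in 32 µM PFBS, against 19.0 FPKM in control (-0.42, q = 0.00521), in the authors' deposited table. None of 17 transporters was called at 16 µM, with at least 1 under 0.05 by unadjusted p, and the most abundant, abcc5, had -0.07 there. The list medians at 32 µM were 0.01 for regulators, 0.07 for electron donors and related enzymes, 0.04 for cofactor supply, -0.01 for other conjugating enzymes and -0.005 for transporters, against -0.02 over all rows naming 1 gene. Between the doses cyp1a was the call in these lists, at 12.0 FPKM in 32 µM PFBS, against 19.2 FPKM in 16 µM PFBS (-0.67, q = 0.0194), in the authors' deposited table.

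**Figure D4:**
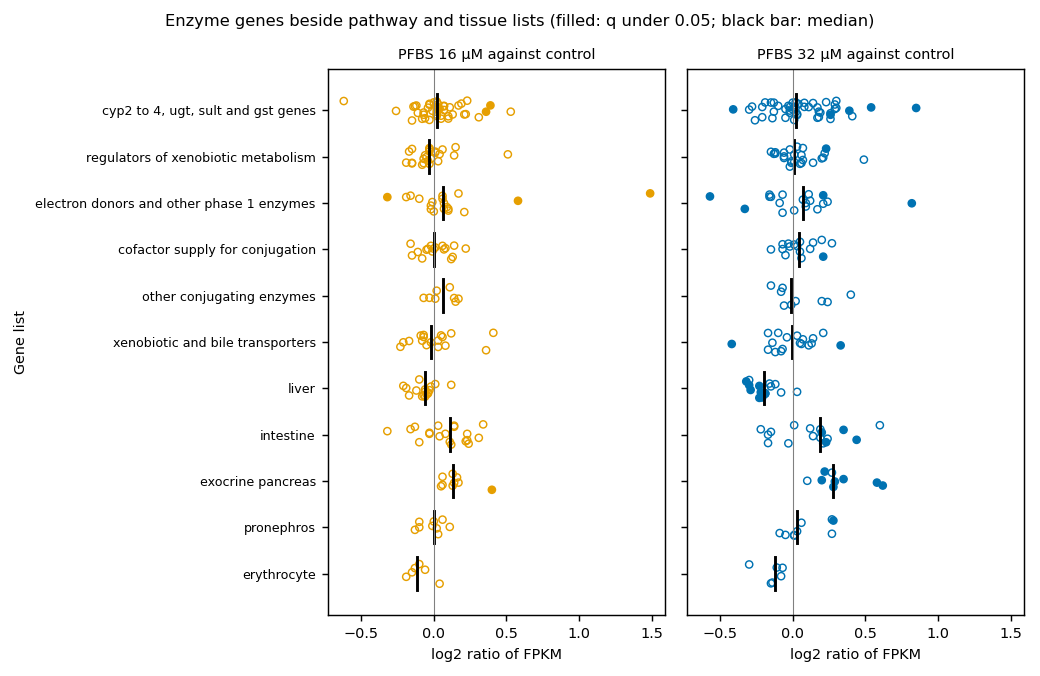
Log2 ratios (PFBS over control, horizontal axis) of the enzyme genes, of 5 pathway lists and of 5 tissue marker lists at 16 µM (left) and 32 µM (right); points are rows, filled where q is under 0.05, and black bars are medians. At 32 µM the enzyme genes, with sult3st4 left out, have a median of 0.02, the liver markers -0.20 and the intestine markers 0.19.

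Markers of the organs that express these enzymes moved in different directions at 32 µM. Over all rows naming 1 gene 0.985% were called higher and 1.28% lower at that dose. Of 17 liver marker rows 11 fell and none rose (median -0.20, summed level 8140 FPKM in 32 µM PFBS, against 9250 FPKM in control), while the liver marker fabp10a had a log2 ratio of 0.03 (q = 0.935) in the authors' deposited table. Those that fell ran from a2ml (-0.32) to f2, fgg and tfa (-0.19 each) and included apoa2, ambp, agt, c9, itih2, gc and vtna. In the intestine list 4 of 17 rows rose and none fell (median 0.19, summed level 863 FPKM in 32 µM PFBS, against 751 FPKM in control). They were fabp2 (0.23), alpi.2 (0.44), vil1 (0.20) and slc6a19b (0.35) in the authors' deposited table. All rows of the intestine list ran from -0.22 to 0.60 there, and both ends of that range were without a call. Of 9 exocrine pancreas genes 7 rose (median 0.28), led by ela3l (0.62) and amy2a (0.58), with ela2, cpa4, ela2l, try and cpb1. In the pronephros list slc20a1a alone rose (0.28), and none of 6 erythrocyte genes was called (at least 2 under 0.05 by unadjusted p, median -0.125).

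At 16 µM no liver, intestine, pronephros or erythrocyte marker was called (at least 1 liver and 2 intestine rows under 0.05 by unadjusted p), and amy2a was the call among 9 pancreas genes. Of all rows naming 1 gene 0.359% were called at that dose. The medians at 16 µM were -0.06 for liver, 0.11 for intestine and 0.13 for exocrine pancreas. No measured marker of the 5 tissue lists was listed at 0 FPKM. In whole animals fewer cells of an organ and less RNA per cell cannot be told apart, and the part of these organ shifts in the enzyme ratios was not tested.

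Across the series 10 gene names were called higher at both doses, cyp3a65 and sult6b1 among them. Among these 10 names, those outside the enzyme families were ranked by the summed absolute difference of their log2 ratios from those of cyp3a65 over both doses. The 5 closest were the pancreatic amylase gene amy2a (0.40 and 0.58, a difference of 0.08), zgc:165423 (0.38 and 0.40, 0.16), LOC100537295 (0.36 and 0.37, 0.17), plekhf1 (0.47 and 0.42, 0.23) and LOC795545 (0.34 and 0.29, 0.27) in the authors' deposited table. The next was zgc:153968 (0.53 and 0.43, 0.28). A call of higher at both doses was required for this ranking, so part of the closeness follows from that filter. Both ratios of each gene share the control samples. The cyp1a gene and the row named mpx, which has the locus of cyp1a, were farthest from cyp3a65 (1.41 and 1.59).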

How the data were processed

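Values start from 3 deposited tables of 1 pair of groups each (29280, 26901 and 29163 rows). Per the file headers, the authors gave 1 log2 FPKM per group, their log2 ratio, a q-value and a call. Cufflinks and the build danRer7 are named per the submitters' processing notes, while aligner, versions, annotation and test are not given in any source used here. On every row the ratio was the later-named group minus the other to within 0.01 and calls were q under 0.05; -10 was read as 0 FPKM. Depth and spread per sample are unknown.

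Members, lists and tests were chosen with earlier results of these data known. Counts, medians, distances and unadjusted p-values (upper bounds where q-values tie, from undoing a Benjamini-Hochberg adjustment over all rows, assumed; tested on simulated data) were computed in Python 3.11.15 with pandas 2.3.3. Named genes were all called members, the 3 with the highest level and the 2 nearest the threshold per family, called or most abundant list genes, and 5 genes like cyp3a65; further members were named to account for the families. Of 51 names 46 were RefSeq GRCz12tu symbols and 4 synonyms. No sequence was used here. Alternatives were other q thresholds, FPKM minima of 1 and 5, pooled, repeated or shared-locus rows, and pseudocounts of 1 and 0.1.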

Additional observations from a re-analysis of the deposited data

Results flagged for a closer look

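The theta class glutathione S-transferase gene gstt1b was marked for a closer look because the 2 doses differed from each other by the authors' own test. Its log2 ratio of 32 to 16 µM PFBS was -0.37 (q = 0.0194) in the authors' deposited table, while against control it had 0.22 at 16 µM and -0.14 at 32 µM, neither of them called.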

How the results depend on the processing

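With q under 0.01, 0 members were called at 16 µM and 0 between the doses, since the smallest q-values of those tables were 0.0219 and 0.0194; unadjusted p was under 0.05 for at least 5 and 6 members by the authors' unnamed test. At 32 µM the count was 8 with pooled rows added and 3 without rows that share a locus, which leaves out cyp2k18 and cyp2aa8. The other 20 alternatives of these counts stayed within 1.5 times the main count. Among them the minimum of 1 FPKM left out no member row, so its counts could not move. Other alternatives that leave out rows could lower a count solely by leaving out a called row. Member medians ranged over their alternatives from 0.019 to 0.03 at 16 µM, from 0.019 to 0.08 at 32 µM and from 0.005 to 0.045 between the doses. Under q 0.01 the calls of cyp2aa8 and of the sult1st2 and sult1st3 row were lost at 32 µM. No called member or pooled row changed sign with a pseudocount of 1 or 0.1. Leaving out the families that only share the prefix, and rows listed at 0, was added after the data were seen. No replicate could be left out, and no paired analysis was possible because the tables hold 1 value per group and the labels link no sample to an experiment. Low members and their calls are limited by an unknown depth.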

Other observations

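The brain cholesterol hydroxylase genes named cyp46a1, taken by the same prefix in pooled rows, were not called in any table. The row of cyp46a1.2, cyp46a1.3 and cyp46a1.4 stood at 10.9 FPKM in 32 µM PFBS, against 10.6 FPKM in control (0.04, q = 0.939), and the row of cyp46a1.1 at 3.68 FPKM in 32 µM PFBS, against 3.78 FPKM in control (-0.04, q = 0.971), in the authors' deposited table.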
